A study of Mus musculus with 3 samples.

Results

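The culture of MC3T3-E1 cells in osteogenic medium for 3 days was compared with culture in normal medium for the same time. MC3T3-E1 is an established line of mouse preosteoblasts from the calvaria, or skull cap, labelled as strain C57BL/6, so every sample comes from this single line. The series holds 3 arrays, 1 per medium, and this comparison uses 2 of them. Cells in normal medium had MEM α and 10% fetal bovine serum. For osteogenic medium this was supplemented with beta-glycerophosphate at 10 mM and ascorbic acid 2-phosphate at 150 µM, both at once, so the parts played by either additive cannot be told apart. On the remaining array, whose values are given beside the others, the cells had osteogenic medium with 0.6% dimethyl sulfoxide (DMSO). All cultures were kept at 37 °C in 5% CO2. Of 18193 genes, 11417 were above a floor of 3.54 on at least 1 of the 2 arrays. Of these, 384 differed at least 1.5-fold, and 364 of them are outside a list of 60 known osteoblast and osteocyte genes.

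Preosteoblasts divide, then lay down a collagen matrix that later takes up mineral. Ascorbate is a cofactor of the enzymes that hydroxylate collagen, which collagen needs to fold and leave the cell, and beta-glycerophosphate is split by alkaline phosphatase to give phosphate for mineral. Signals known to steer this path include the Wnt, bone morphogenetic protein (BMP), Hedgehog, Notch and insulin-like growth factor (IGF) pathways.

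Every value is the deposited level of a probe set on a log2 scale, so that a difference of 1 is a 2-fold change, and a level at 3.54 means at or under the floor. A gene is called higher or lower when its level in osteogenic medium differed from that in normal medium by at least 1.5-fold, and a change that starts or ends at the floor is a bound, written as "at least". With 1 array per medium there was no test, no error between cultures and no p-value, so the small number of arrays sets how precise any value can be. The median difference over the 11417 genes was 0.00, the central 95% of them lay between -0.49 and 0.51, and 24.9% had exactly equal values on both arrays. The 18 probe sets of the hybridisation spikes differed by a median of 0.10 (0 to 0.29), and the 27 of the poly(A) spikes by 0.00 (-0.09 to 0.19). RNA came from whole cultures, in which fewer cells of a kind and less RNA per cell cannot be told apart.

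The defining osteoblast markers Col1a1, Sp7 and Alpl were above the floor on all 3 arrays. Col1a1, a chain of type I collagen, read 12.28 in normal medium, 12.32 in osteogenic medium and 12.50 with DMSO. Sp7, the transcription factor osterix, read 6.42, 7.30 and 7.72 in the same order, and Alpl, the tissue-nonspecific alkaline phosphatase, read 6.61, 8.31 and 9.02. Of 49 genes of the known osteoblast list on the arrays, 5 were under the floor in both media. Among the 44 above the floor, 18 were higher (40.9%, against 1.75% of all genes) and 2 lower (4.55%, against 1.61%). That list was chosen with earlier results of these data known. Markers of other lineages were in part above the floor: 9 of 10 of smooth muscle, with levels up to 12.49, 6 of 18 of macrophages and osteoclasts, up to 9.46, 5 of 12 of endothelium, up to 7.28, and 6 of 18 of skeletal muscle, up to 5.17. So were 5 of 7 of tenocytes, up to 12.41, and 3 of 11 of adipocytes, up to 6.15, on at least 1 of the 2 arrays compared, as for all these counts. Under the floor on both arrays were Myh11 of smooth muscle, Ptprc and Adgre1 of macrophages, Pecam1 and Cdh5 of endothelium, and Myod1 and Myog of skeletal muscle. Over all measured genes, 1.75% were higher and 1.61% lower, and in lists as short as these 1 gene is a large share. Of the 9 lists of such markers, those with any member past 1.5-fold were chondrocyte (2 of 9 measured members higher), keratinocyte (1 higher and 1 lower of 6) and neural (1 higher of 6). Their members' levels ran from 3.77 to 8.68 in normal and 3.77 to 8.77 in osteogenic medium for the chondrocyte list, from 3.87 to 8.26 and 4.48 to 8.48 for the keratinocyte list, and from 4.02 to 7.21 and 4.27 to 7.59 for the neural list. Whether another kind of cell had a part in any result was not tested.

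In all, 200 genes (1.75% of those measured) were at least 1.5-fold higher in osteogenic medium and 184 (1.61%) were at least 1.5-fold lower. Between 1.5-fold and 2-fold there were 146 genes higher (1.28%) and 163 lower (1.43%), whereas 54 (0.473%) were at least 2-fold higher and 21 (0.184%) at least 2-fold lower. The lower genes thus lay mostly in the range under 2-fold. The known osteoblast genes were unevenly spread over these ranges. They made up 14 of the 54 genes at least 2-fold higher and 2 of the 21 at least 2-fold lower. In the range under 2-fold they were 4 of the 146 higher and 0 of the 163 lower genes. Among all 11417 measured genes they were 44. Their list was chosen with earlier results of these data known, so this spread describes the list and is not a test.

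**Figure D1:**
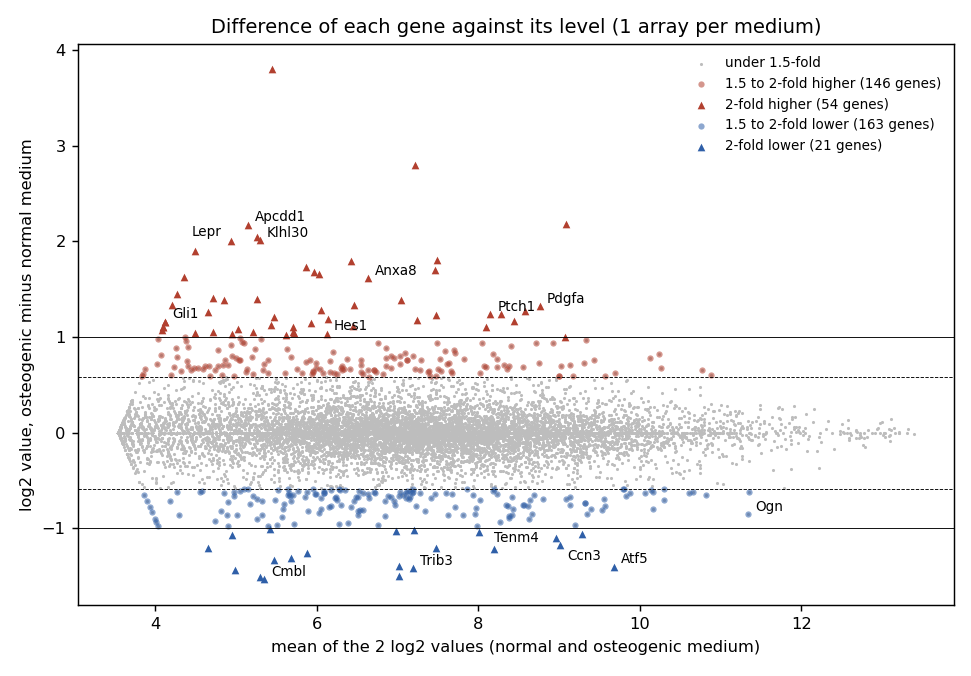
Difference between osteogenic and normal medium (log2, y axis) against the mean of both log2 levels (x axis) for the 11417 genes above the floor on at least 1 of the 2 arrays; 1 point is 1 gene, with 1 array per medium. Dashed lines mark 1.5-fold and solid lines 2-fold, and the 146 and 163 genes between them run over levels from near the floor to above 10.

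The clearest group among the lower genes was the amino acid response, the programme by which the factor ATF4 raises amino acid synthesis, amino acid import and tRNA charging. Of its 52 measured genes, 17 were lower (32.7%, against 1.61% of all genes) and 1 was higher, and the median difference over the list was -0.46 against 0.00 over all genes. In this group the range under 2-fold held 13 of the 17. Promoters were set beside these values because genes of this response carry a known element that binds ATF4 and its partners. The letters TGATGNAAN, on either strand, were searched in the 300 bases from 250 before to 50 after each start in RefSeq (GRCm38.p6). They occurred in the promoters of 229 of the 9229 measured genes with an entry (2.48%), of 13 of 139 lower genes (9.35%) and of 3 of 154 higher genes (1.95%). Among lower genes of the amino acid list the count was 6 of 12, and among all measured genes of that list it was 15 of 42 (35.7%). The 4 promoters printed here, 5′ to 3′ on the strand of the gene, belong to lower genes of 4 different roles, and capitals mark the match.
Trib3 (chr2:152344011-152344310, minus strand): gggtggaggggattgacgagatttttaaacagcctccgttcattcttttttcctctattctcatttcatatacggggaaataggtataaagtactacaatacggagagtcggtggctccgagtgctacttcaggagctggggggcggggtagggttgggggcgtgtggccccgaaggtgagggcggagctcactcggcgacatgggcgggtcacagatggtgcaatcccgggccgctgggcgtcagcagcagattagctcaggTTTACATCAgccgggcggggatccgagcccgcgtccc
Asns (chr6:7693160-7693459, minus strand): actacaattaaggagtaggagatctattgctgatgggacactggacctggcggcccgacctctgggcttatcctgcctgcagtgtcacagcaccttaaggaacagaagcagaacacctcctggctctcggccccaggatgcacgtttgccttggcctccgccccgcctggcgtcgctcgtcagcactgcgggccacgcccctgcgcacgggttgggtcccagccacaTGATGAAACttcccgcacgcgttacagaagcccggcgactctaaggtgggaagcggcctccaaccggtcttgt
Chac1 (chr2:119350992-119351291, plus strand): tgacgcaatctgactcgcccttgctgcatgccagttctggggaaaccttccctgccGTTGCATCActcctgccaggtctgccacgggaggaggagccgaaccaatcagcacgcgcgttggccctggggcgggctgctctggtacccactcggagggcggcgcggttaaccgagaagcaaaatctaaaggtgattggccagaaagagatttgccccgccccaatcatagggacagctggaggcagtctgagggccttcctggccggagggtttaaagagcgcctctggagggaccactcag
Aars (chr8:111033592-111033891, plus strand): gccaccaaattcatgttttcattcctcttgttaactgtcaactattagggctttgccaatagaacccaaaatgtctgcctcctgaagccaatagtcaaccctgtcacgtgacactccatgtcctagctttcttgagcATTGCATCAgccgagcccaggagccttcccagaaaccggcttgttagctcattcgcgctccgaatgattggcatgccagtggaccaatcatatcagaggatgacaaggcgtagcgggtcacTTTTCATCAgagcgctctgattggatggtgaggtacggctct
The match lies 13 bases after the start in Trib3, 23 before it in Asns and 194 before it in Chac1, and Aars has matches 113 before and 8 after. Of these only the match in Asns reads on the strand of the gene. A match is a description of the letters and was not tested as a binding site.

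Trib3, the pseudokinase that ATF4 induces and that restrains it, read 7.90 in normal medium, 6.48 in osteogenic medium and 6.32 with DMSO. Its change was -1.42, and its other probe set above the floor gave -1.75. Asns, which makes asparagine, read 10.56, 9.77 and 9.73, a change of -0.80. Both osteogenic arrays were below the normal array for each gene, and the same order held for the next ones. Chac1, which breaks down glutathione, read 7.76, 6.94 and 6.85, and Aars, which charges the alanine tRNA, read 9.80, 9.0 and 8.94. These are falls of 1.77-fold and 1.74-fold. Psph, the last enzyme of serine synthesis, went from 8.83 to 8.03 and read 8.01 with DMSO.

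Import and sulfur amino acid genes belonged to the same range. Slc7a5, the light chain of the large neutral amino acid transporter, read 9.68, 8.71 and 8.69, a change of -0.97. Cth, which makes cysteine from cystathionine, read 7.25, 6.27 and 5.54, also -0.97. Slc1a5, a glutamine transporter, changed by -0.67, and Csad, which makes the taurine precursor hypotaurine from cysteine sulfinate, went from 6.75 to 5.79, although it is in none of the lists. Mitochondrial members included Pck2, the mitochondrial phosphoenolpyruvate carboxykinase (-0.74, other probe set -1.26), Mthfd2 of the folate cycle (-0.69, other probe set -0.57) and Aldh1l2, which oxidises formyl folate (-1.06). Ddit3, the factor also called CHOP, read 8.81, 7.59 and 7.40, while its other probe set gave -0.63. Atf4 itself, which is regulated largely at translation, read 10.80 and 10.41, a change of -0.39 that is under 1.5-fold. Ddit4l, an inhibitor of mTORC1, was the only member of the list that was higher, at 6.74, 7.50 and 6.82. Other members stayed within 1.5-fold on the lower side, among them Phgdh, the first enzyme of serine synthesis (-0.53), and Shmt2, a mitochondrial serine hydroxymethyltransferase (-0.47).

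The cell cycle list showed the opposite pattern, with many changes in 1 direction and none of them 2-fold. Of 131 measured genes, 13 were higher (9.92%, against 1.75% of all genes) and 0 lower, and the list's median was 0.37. Apart from the G1 cyclin Ccnd1, the 13 genes serve mitosis or DNA replication and repair. Promoters of such genes often carry a cell cycle homology region, searched here as its core TTTGAA on either strand. It was present in 14.1% of all measured genes with a promoter entry, in 48 of 106 genes of the list (45.3%) and in 5 of the 10 higher genes of the list that had an entry. Its share among all higher genes was 16.2% and among all lower genes 12.2%. The 3 promoters printed here are those of higher genes with the match close to the start, again with the match in capitals.
Cenpa (chr5:30666636-30666935, plus strand): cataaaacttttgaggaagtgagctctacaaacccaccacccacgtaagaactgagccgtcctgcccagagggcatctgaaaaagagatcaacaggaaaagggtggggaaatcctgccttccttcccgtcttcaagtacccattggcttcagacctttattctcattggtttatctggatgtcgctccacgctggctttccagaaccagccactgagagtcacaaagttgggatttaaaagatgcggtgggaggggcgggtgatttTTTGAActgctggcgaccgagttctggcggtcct
Cdca5 (chr19:6084847-6085146, plus strand): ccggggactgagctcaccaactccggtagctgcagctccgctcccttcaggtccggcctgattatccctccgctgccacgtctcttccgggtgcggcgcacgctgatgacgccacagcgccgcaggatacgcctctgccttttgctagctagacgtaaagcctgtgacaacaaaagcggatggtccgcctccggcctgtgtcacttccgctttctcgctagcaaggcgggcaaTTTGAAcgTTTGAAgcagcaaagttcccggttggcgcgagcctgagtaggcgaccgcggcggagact
Depdc1a (chr3:159495183-159495482, plus strand): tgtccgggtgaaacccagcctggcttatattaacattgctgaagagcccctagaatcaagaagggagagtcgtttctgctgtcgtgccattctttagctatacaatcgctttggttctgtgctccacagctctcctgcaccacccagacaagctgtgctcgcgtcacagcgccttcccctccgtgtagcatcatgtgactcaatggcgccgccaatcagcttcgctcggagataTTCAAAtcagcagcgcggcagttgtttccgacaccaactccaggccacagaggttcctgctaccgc
The match begins 16 bases after the start in Cenpa, 17 and 9 before it in Cdca5, where it is doubled, and 16 before it in Depdc1a, where it lies on the opposite strand. The letters CCAAT, also common in cell cycle promoters, were in 8 of the 10, in 74 of the 106 genes of the list (69.8%) and in 42.7% of all genes.

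Cenpa, the histone H3 variant of the centromere, read 8.87 in normal medium, 9.46 in osteogenic medium and 9.68 with DMSO, while its other probe set above the floor gave 0.28. Cdca5, the cohesin protector sororin, read 7.71, 8.34 and 8.62, and its other probe set gave 0.70. For Depdc1a, a mitotic protein, the values were 6.67, 7.39 and 7.49. The normal array was the lowest of the 3 for each of these genes. Aurka, the Aurora A kinase of the spindle poles, was at 6.91, 7.67 and 7.91, a difference of 0.76, and its other probe set was under the floor. Bub1, a spindle checkpoint kinase, differed by 0.65 (other probe set 0.20), Cenpw of the kinetochore by 0.66 and Stil, needed to build centrioles, by 0.64. On the replication and repair side were Cdc6, which loads the replicative helicase (0.59), and the exonuclease Exo1 (0.67). Mki67, Top2a and Pcna, abundant markers of cycling cells, differed by 0.19, 0.21 and 0.28, all under 1.5-fold. Ccnd1, cyclin D1, read 9.93, 10.60 and 10.16. Outside the list, single genes of arrest or death of cells went both ways, and most of those named here were higher. Cdkn1a, the cell cycle inhibitor p21, read 9.82, 10.65 and 10.35, and its other probe set gave 0.80. Mdm2, the ubiquitin ligase of p53, was at 7.29, 8.12 and 7.67, Btg2, an antiproliferative gene, at 6.47, 7.25 and 7.17, and Fas, the death receptor, at 4.80, 5.67 and 5.32, while Gadd45a, a growth arrest gene, was lower at 6.82, 6.11 and 5.96. The 16 histone genes and 61 ribosome biogenesis genes measured held no gene past 1.5-fold, against 1.75% higher and 1.61% lower of all genes. For 16 genes this cannot be told apart from those shares. A probe set shared by several histone H4 genes, and so in no list, was higher by 0.87.

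In the Hedgehog and Notch list, 3 of 28 measured genes were higher (10.7%, against 1.75% of all genes) and 0 lower. The median was 0.00. Ptch1, the Hedgehog receptor and itself a target of the pathway, read 7.53 in normal medium, 8.77 in osteogenic medium and 9.08 with DMSO. Gli1, the transcription factor whose transcript is the usual readout of the pathway, was at the floor in normal medium and read 4.70 and 4.66 on the osteogenic arrays, at least 2.23-fold higher. Both targets thus read lowest in normal medium, and Gli1 stayed dim on every array. The receptors and transducers differed less. Smo, the signal transducer, read 9.01, 9.13 and 9.18, Gli3 read 7.39, 7.41 and 7.39, and Gas1, a coreceptor, read 10.95, 10.53 and 10.11. The ligands Shh, Ihh and Dhh and the decoy Hhip were under the floor on both arrays. Hes1, a repressor induced by Notch, read 5.60, 6.64 and 6.50, whereas Notch1 and Jag1 differed by 0.10 and -0.15, and Nrarp, Hey2 and Heyl were under the floor. Rbpj, the DNA-binding effector of Notch, is not in the list and was lower, with a change of -0.87 (other probe set -0.54). Limits apply to both Hedgehog targets: the other probe set of Ptch1 above the floor gave 0.00, the mean over all its probe sets was 0.41, and the bound of Gli1 was 0.22 with the floor at the 60th percentile.

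Secreted and membrane regulators of the Wnt, BMP and activin pathways were among the most often changed lists. Of 61 measured genes, 9 were higher (14.8%, against 1.75% of all genes) and 4 lower (6.56%, against 1.61%). The median was 0.00. Apcdd1, a membrane inhibitor of Wnt, read 4.06, 6.23 and 7.07, with its other probe sets above the floor at 0.10 and 1.53. Axin2, a target and inhibitor of the pathway, read 5.63, 6.25 and 6.41, and Wif1, a secreted Wnt binder, 7.85, 8.62 and 8.76. Nkd2, which binds Dishevelled, read 4.66, 5.42 and 4.98. Rnf43, the ligase that removes Frizzled receptors, went from the floor to 4.21 and 4.75, at least 1.59-fold higher. Its relative Znrf3 read 6.52 in both media. Outside the list, Dact1, another Dishevelled partner, read 6.29, 7.23 and 6.49, so the array with DMSO stayed near that of normal medium. Fzd1, a Frizzled receptor from the list of G protein-coupled receptors, was 1.70-fold higher at 9.05, 9.81 and 9.60.

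Sostdc1, which antagonises BMP and Wnt ligands outside the cell, read 5.54 and 6.74 in normal and osteogenic medium, and its other probe set above the floor gave 1.16. With DMSO it read 3.85, below both other arrays. Activin subunits were higher as well. Inhba read 7.58, 8.52 and 8.29, and Inhbb went from the floor to 5.17 and 5.28, at least 3.09-fold higher. A further probe set of Inhbb above the floor gave 0.23. Bmper, which binds BMPs outside the cell, was at least 2.73-fold higher, from the floor to 4.99 and 5.70. The lower members were Sfrp2, a secreted Wnt-binding protein (10.92, 10.29 and 9.95), Nbl1, a BMP antagonist (6.82, 6.15 and 6.11), Htra1, a secreted protease (10.16, 9.50 and 9.63), and Id4, an inhibitor of helix-loop-helix factors. Id4 read 10.65, 9.95 and 8.12, lowest with DMSO, and its other probe sets gave -0.98 and -0.59.

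**Figure D2:**
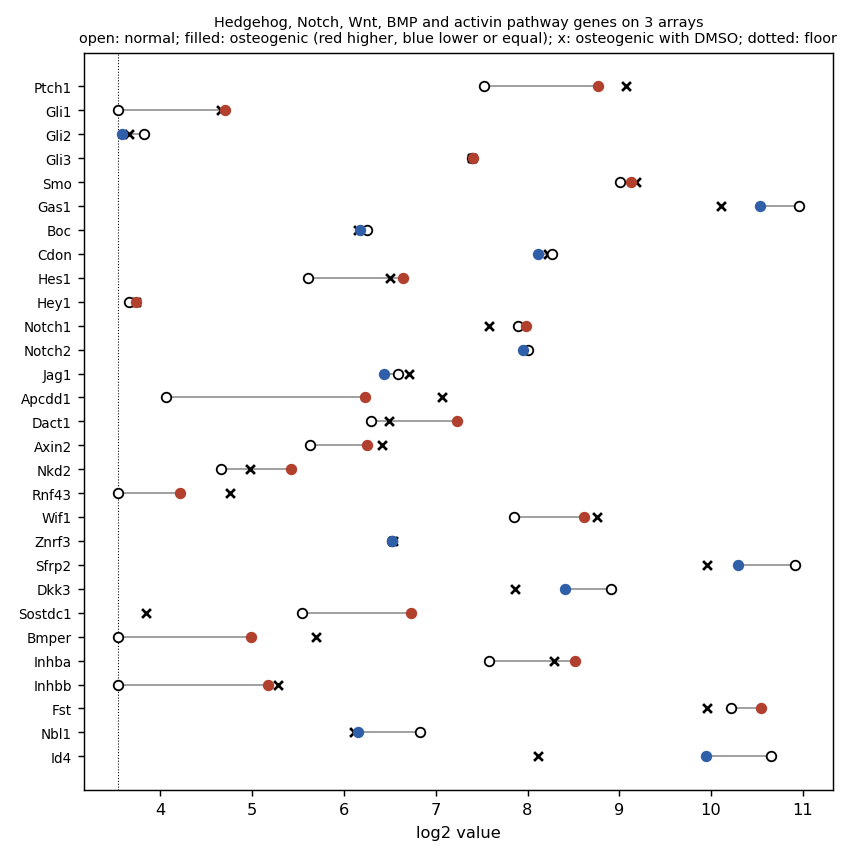
Log2 levels (x axis) of Hedgehog, Notch, Wnt, BMP and activin pathway genes, 1 array per medium: open circles are normal medium, filled circles osteogenic medium and crosses osteogenic medium with DMSO; the dotted line is the floor of 3.54. Ptch1, Gli1, Hes1, Apcdd1 and Inhbb lie to the right of normal medium on both osteogenic arrays, while the cross of Sostdc1, at 3.85, lies to the left of both circles.

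Genes of growth hormone and IGF signalling, which are grouped here after their values were seen and form no fixed list, changed both ways. Ghr, the growth hormone receptor, read 8.73 in normal medium, 7.97 in osteogenic medium and 7.91 with DMSO, and its other probe sets gave -0.77 and -0.59. Igf1, which growth hormone induces, read 9.95, 9.18 and 8.53, with other probe sets between -0.84 and -0.63. Socs2, the feedback inhibitor of growth hormone signalling, was at 9.01, 8.24 and 7.97. Igfbp4, an inhibitory IGF binding protein, read 11.66, 11.05 and 10.74, and all 5 of its other probe sets were also lower, between -0.99 and -0.54. In the other direction, Irs1, which carries the signal of the insulin and IGF receptors, was higher at 10.45, 11.10 and 11.04. Grb14, an adaptor that inhibits the insulin receptor, was higher at 7.54, 8.64 and 8.38. The IGF receptor Igf1r differed by -0.08 and Igf2 by 0.53, both under 1.5-fold, and Cish, another feedback gene of the same receptors, by 0.04. Txnip, which limits glucose uptake, was also lower at 8.85, 7.99 and 8.30, and Fbxo32, the ubiquitin ligase atrogin-1, read 6.98, 6.17 and 6.04.

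Among cytokines and their receptors, 5 of 73 measured genes were higher (6.85%, against 1.75% of all genes) and 2 lower (2.74%, against 1.61%). The median was 0.00. Lepr, the leptin receptor, read 3.94, 5.94 and 6.15, a 4-fold difference, and its other probe set above the floor gave 1.40. Lif, a ligand of the family, read 4.48, 5.40 and 4.83, and Il6ra, which binds interleukin 6, read 3.96, 4.86 and 4.92. Il6st, gp130 itself, was lower at 8.15, 7.56 and 7.52, with its other probe sets at -0.49 to -0.43, just under 1.5-fold. Il33, an alarmin, was above the floor in osteogenic medium alone, at 4.62. Of 48 receptor tyrosine kinase and growth factor genes measured, 2 were higher (4.17%, against 1.75% of all genes) and 3 lower (6.25%, against 1.61%). Pdgfa, a platelet-derived growth factor, read 8.10, 9.42 and 9.90, and its other probe set gave 1.30. Its receptors Pdgfra and Pdgfrb differed by -0.51 and -0.28. Fgf7, a growth factor for epithelium, read 9.90, 9.20 and 8.48 (other probe set -0.66), and Gfra2, a coreceptor for neurturin, read 9.0, 8.29 and 7.49.

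Of 68 G protein-coupled receptors measured, 4 were higher (5.88%, against 1.75% of all genes) and 2 lower (2.94%, against 1.61%). Ptger4, a prostaglandin E receptor with a role in bone formation, read 5.42, 6.09 and 5.61, and Ptgfr, the prostaglandin F receptor, read 8.37, 7.66 and 8.32, so the pair moved in opposite directions and both lay near normal medium with DMSO. Sstr2, a somatostatin receptor, read 4.56, 5.36 and 5.61. Adgrd1, an adhesion receptor, was at least 2.14-fold higher, from the floor to 4.64 on both osteogenic arrays. Ramp1, which makes the calcitonin receptor-like receptor into a receptor for CGRP, read 7.67, 8.90 and 9.89, although its other probe set above the floor gave 0.00.

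Adhesive and structural matrix genes other than fibrillar collagens changed both ways, with a median of -0.08. Of 78 measured, 8 were higher (10.3%, against 1.75% of all genes) and 10 lower (12.8%, against 1.61%). The small leucine-rich proteoglycans of 1 chromosomal cluster were split. Omd, osteomodulin of the bone matrix and one of the known osteoblast genes, read 8.85, 9.81 and 10.15. On either side of it among the genes on the chromosome, Ogn, also called mimecan, read 11.76, 10.91 and 10.46, and Aspn, asporin, read 10.97, 10.35 and 9.68. The neighbours thus moved in opposite directions on both osteogenic arrays. The higher genes included Srpx2, a secreted ligand (5.79, 7.13 and 6.70), Tnn, tenascin W (4.87, 6.08 and 5.21), Vcan, the large proteoglycan versican (6.57, 7.35 and 6.92), and Tgfbi, an integrin-binding protein induced by TGF-beta. The other probe sets of Vcan above the floor gave 0.81 and 0.50, but the mean over all its 8 probe sets gave 0.00. Tgfbi read 7.27, 8.14 and 7.25, so its level with DMSO was that of normal medium. Cthrc1, a secreted gene of collagen-making cells, read 7.95, 9.22 and 8.74. Lower genes were Ccn3, a matricellular protein (9.61, 8.43 and 7.87, other probe set -1.05), Ccn5 of the same family (6.93, 6.11 and 5.40), Fbln2, fibulin 2 (9.77, 8.92 and 7.93), Mfap5 of the microfibrils (7.39, 6.75 and 5.54) and Vit, vitrin (6.05, 4.54 and 3.87). For all of these the array with DMSO was lowest.

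In the list of proteases and their inhibitors, changed members were almost all lower. Of 121 measured, 10 were lower (8.26%, with 1.61% of all genes) and 1 higher (0.826%, with 1.75% of all genes). Outside the list, Cela1, an elastase (4.82, 5.80 and 4.41), and Slpi, a protease inhibitor (8.79, 9.50 and 8.46), were higher. The complement proteases C1s1 and Masp1, given below, were lower and also lie outside it. The collagenase Mmp13 is among the 10 lower members and is also in the known osteoblast list. It changed by -1.40, the largest fall of the protease list. Adamts5, an aggrecanase, read 7.71, 6.69 and 7.03, with other probe sets at -0.99 and -0.48, and its neighbour Adamts1, which cleaves versican, read 7.35, 6.72 and 6.46. Adamtsl3, a related secreted protein without protease activity, read 9.09, 8.24 and 7.95. Enpep, the aminopeptidase that trims angiotensin, read 9.69, 8.96 and 7.05. Adam19, a membrane metalloprotease, changed by -0.69 and its other probe set by -0.71. Prss35, a serine protease homologue, was the exception in the list, at 3.55, 5.45 and 5.36. Of 20 complement and coagulation genes measured, 2 were lower (10.0%, against 1.61% of all genes) and 1 higher (5.0%, against 1.75%). The median of these genes was -0.06. C1s1, the C1s protease, read 8.53, 7.49 and 6.92. Masp1, a protease of the lectin pathway, read 8.74, 7.80 and 6.84, but without probe sets of the suffixes _s_at and _x_at its difference was 0.00. F13a1, the clotting factor that crosslinks fibrin, was higher in osteogenic medium at 9.11 against 8.38, and lower than both with DMSO, at 5.51.

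Of 125 adhesion and guidance genes measured, 8 were lower (6.40%, against 1.61% of all genes) and 2 higher (1.60%, against 1.75%). The median was 0.00. Tenm4, a teneurin of the cell surface, read 9.51, 8.41 and 8.19, and its other probe sets above the floor both gave -1.02. Fat4, a giant cadherin of planar polarity, read 6.86, 5.92 and 5.56 (other probe set -0.89), and Flrt2, an adhesion and guidance receptor, read 7.20, 6.49 and 6.37. Efnb2, ephrin B2, read 5.60, 4.91 and 4.62. In contrast Cdh1, E-cadherin, read 3.87, 4.87 and 3.55, close to the floor and raised in osteogenic medium without DMSO alone. It was 0.39 with the floor at the 60th percentile.

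Of 204 solute carriers measured, 6 were higher (2.94%) and 3 lower (1.47%), shares near those of all genes. Slc13a5, the citrate transporter, which osteoblasts use for the citrate of bone mineral, read 4.63, 5.57 and 5.66. Slc19a2, a thiamine transporter, read 7.96, 8.67 and 8.31, and its other probe sets gave 0.76 and 0.78. Slc40a1, the iron exporter ferroportin, was at least 2.14-fold higher, from the floor to 4.64 and 4.49. The 2 lower carriers besides Slc7a5 were Slc1a5 and Slc26a7, an anion exchanger at 5.89 and 4.91 that was at the floor with DMSO. Of 95 channels and pumps measured, 4 were higher (4.21%, against 1.75% of all genes) and 2 lower (2.11%, against 1.61%). Kcnk2, a stretch-sensitive potassium channel, was at the floor except in osteogenic medium without DMSO, where it read 4.52, and Kcnt2, a sodium-activated potassium channel, read 5.99, 5.19 and 4.68.

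Enzymes of lipids and sugars gave single changes rather than groups. Sgms2, a sphingomyelin synthase with human mutations in skeletal dysplasia, read 6.36, 7.74 and 8.26, and its other probe set gave 1.11. Galnt3, which starts the O-glycans of FGF23, was at least 2.52-fold higher, from the floor to 4.87 and 4.97, but with the floor at the 60th percentile its bound was 0.39. Pxylp1, a phosphatase that acts on the linker of proteoglycans, read 7.95, 8.85 and 8.88 (other probe set 1.0), and Hs6st1, a heparan sulfate sulfotransferase, read 6.45, 5.60 and 5.82. Abca8a and Abca9, lipid transporter genes that lie next to each other, were both lower, by -0.93 and -0.64. Sod3, the extracellular superoxide dismutase, read 6.94, 6.09 and 5.78, and Acot2, a mitochondrial thioesterase of fatty acids, read 8.05, 7.19 and 6.98, each with a second probe set at -0.74 and -0.64.

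The enzymes that use ascorbate and the carriers of the added compounds did not change as groups. Of 61 measured dioxygenases that need ascorbate, 1 was higher and 1 lower (1.64% each, near the 1.75% and 1.61% of all genes). The median was 0.00. Among the collagen prolyl hydroxylases, P4ha1 differed by -0.01, P4ha2 by 0.26 and P4ha3 by -0.36. The 2 changed genes were Jmjd6, a lysyl hydroxylase of nuclear proteins (0.66), and P3h2, a collagen prolyl 3-hydroxylase, which read 7.31, 6.60 and 5.49. The 24 measured genes of ascorbate and phosphate transport held 0 past 1.5-fold, too few genes for this to be told apart from the shares of all genes. A member of this list, the ascorbate transporter Slc23a2, differed by -0.24. The 323 zinc finger genes measured held 0 changed genes, against 1.75% higher and 1.61% lower of all genes. The 65 homeobox genes held 0 higher and 1 lower (1.54%), Pknox2, which was 1.63-fold lower. Of 43 interferon and antigen presentation genes, 3 were lower (6.98%, against 1.61% of all genes) and 0 higher, and the median was -0.18. The lower ones included Gbp2, a guanylate-binding protein (6.45, 5.65 and 5.28, other probe set -0.83).

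**Figure D3:**
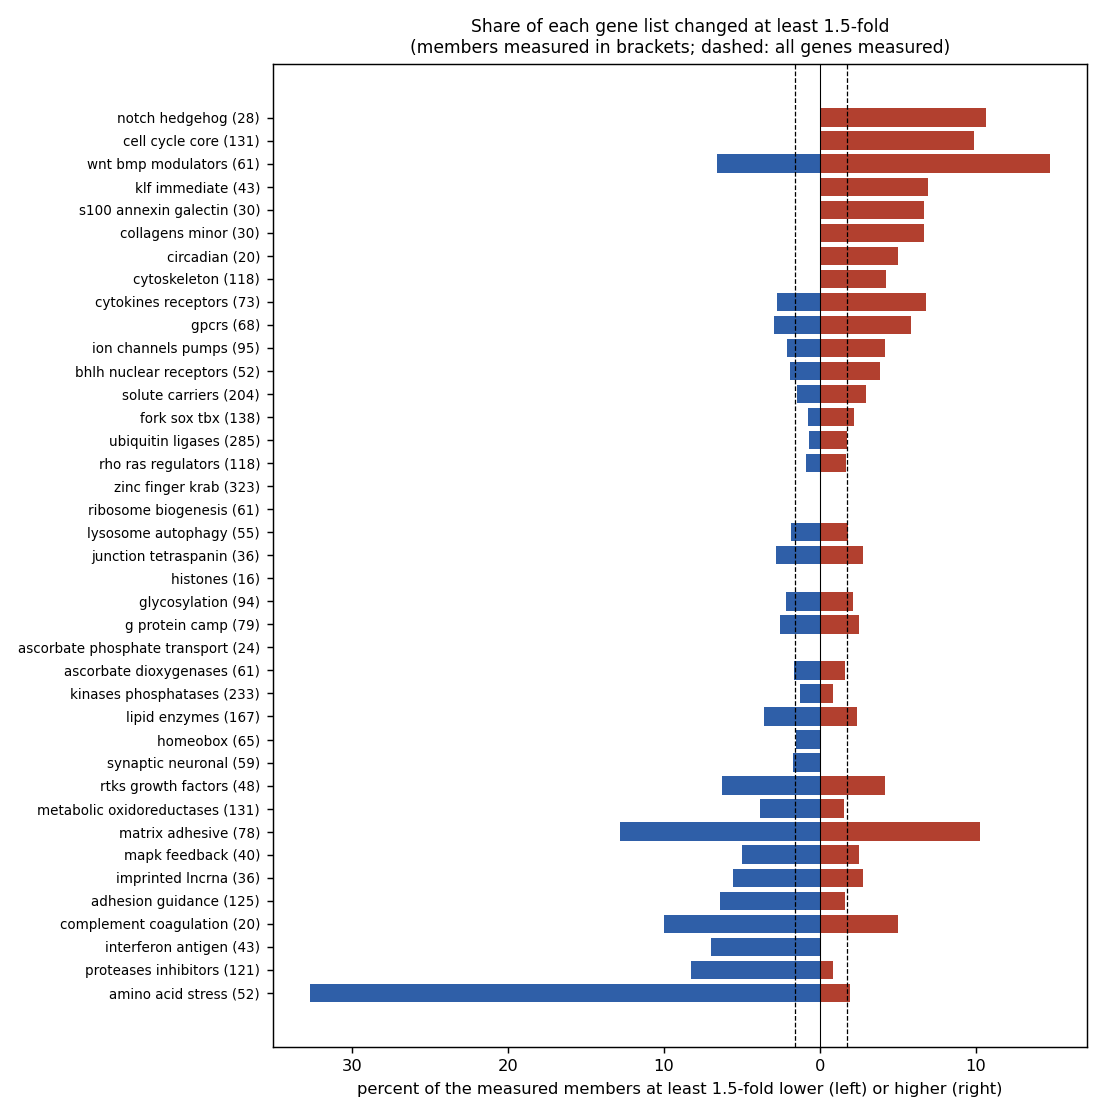
Percent of the measured members of each gene list that were at least 1.5-fold lower (left, blue) or higher (right, red) in osteogenic medium, with the number of measured members in brackets and dashed lines at the shares of all 11417 genes, 1.61% and 1.75%. The amino acid response stands at 32.7% lower, Wnt and BMP regulators at 14.8% higher, and zinc finger, ribosome biogenesis, histone and ascorbate or phosphate transport genes at 0.

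Outside these lists, the genes with the largest differences in the range from 1.5-fold to 2-fold had varied functions. Pkdcc, a secreted tyrosine kinase needed for skeletal growth, read 7.01, 7.95 and 8.0, and its other probe set gave 0.65. Snhg4, a host gene of small nucleolar RNAs, read 8.25, 9.19 and 8.79, while Snhg12, of the same kind, was lower at 9.51, 8.75 and 8.24. Mob3b, a Mob family protein, read 4.55, 5.54 and 5.88. Of the lower genes, Akap12, a scaffold of protein kinase A, read 8.47, 7.49 and 7.15. Niban1, a stress-induced gene, read 9.08, 8.18 and 7.75, and its other probe set also gave -0.90. Rassf5, a Ras effector, read 6.20, 5.25 and 4.86, with -0.94 in its other probe set. At 2-fold and above, further genes outside the known list with support from another probe set were Gask1b, a Golgi protein (5.13, 6.80 and 6.44, other probe set 1.72), Anxa8, an annexin (5.82, 7.44 and 6.70, other probe set 1.54), and Lrrc15, a membrane protein of matrix-making cells (4.57, 5.96 and 5.01, other probe set 1.60). C1qtnf3, a secreted C1q-like protein of cartilage and fat, read 5.53, 7.32 and 7.23 by its only probe set, and Sned1, a matrix protein, was lower at 8.09, 6.88 and 6.35.

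**Figure D4:**
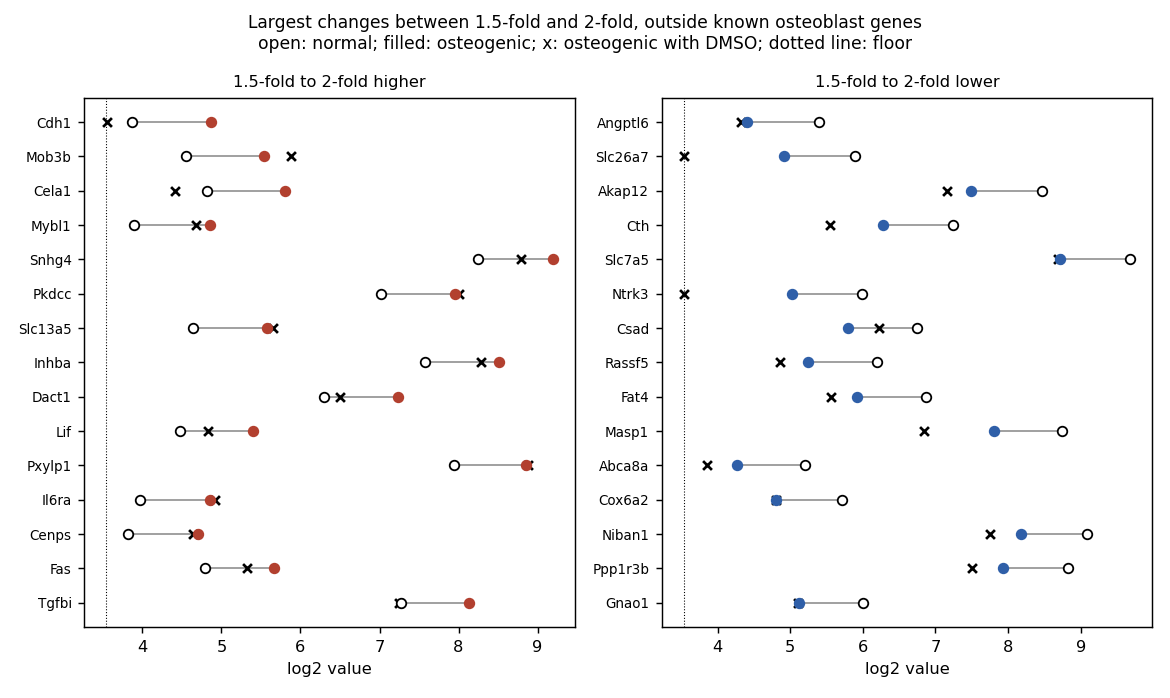
Log2 levels (x axis) of the 15 genes with the largest rise and the 15 with the largest fall between 1.5-fold and 2-fold, outside known osteoblast genes and above the floor on both arrays; open circles are normal medium, filled circles osteogenic medium and crosses osteogenic medium with DMSO, 1 array each, with the floor of 3.54 dotted. Crosses for Cdh1, Cela1 and Tgfbi lie at or left of normal medium, and those for Slc26a7 and Ntrk3 at the floor.

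The limits of the range are arbitrary, and the genes beside them differ little. Just inside 1.5-fold were Cdc6, Fosl1 and Lrrc8c at 0.59, and just outside were Cdo1, Stk17b and Kif18a at 0.58. On the lower side these were Fam107b, Sars and Il6st at -0.59 and Rbms3, Arrdc4 and Hopx at -0.58. At the 2-fold limit, Tm4sf1 (1.0), Slc16a4 (1.02) and Hes1 (1.04) were inside and Cela1 (0.98), Mob3b (0.99) and Cdh1 (1.0) outside. For falls, Tmem8b (-1.0), Adamts5 and Diras2 (both -1.02) were inside, and Akap12 (-0.97), Slc26a7 and Angptl6 (both -0.98) outside.

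A second probe set of a gene was the one repeat measurement available, and it covers neither culture nor array. For 5216 genes a second probe set was above the floor, and the difference between both probe sets had an SD of 0.188 over all of them. The SD was larger for changed genes: 0.26 and 0.276 for those 1.5-fold to 2-fold higher and lower. For those at least 2-fold higher and lower it was 0.606 and 0.385. Among 57 such genes that were 1.5-fold to 2-fold higher, the second probe set had the same sign in 52, was equal in 4 and opposite in 1, and it passed 1.5-fold itself in 23. Its median was 0.48 against 0.70 for the first. For 74 genes lower in that range the counts were 69, 4 and 1, with 38 past 1.5-fold and medians of -0.60 and -0.68. Over all pairs, 2.84% of second probe sets were past 1.5-fold in either direction. The first probe set was chosen for its level and counted for its change, so these shares describe the range and do not test it.

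**Figure D5:**
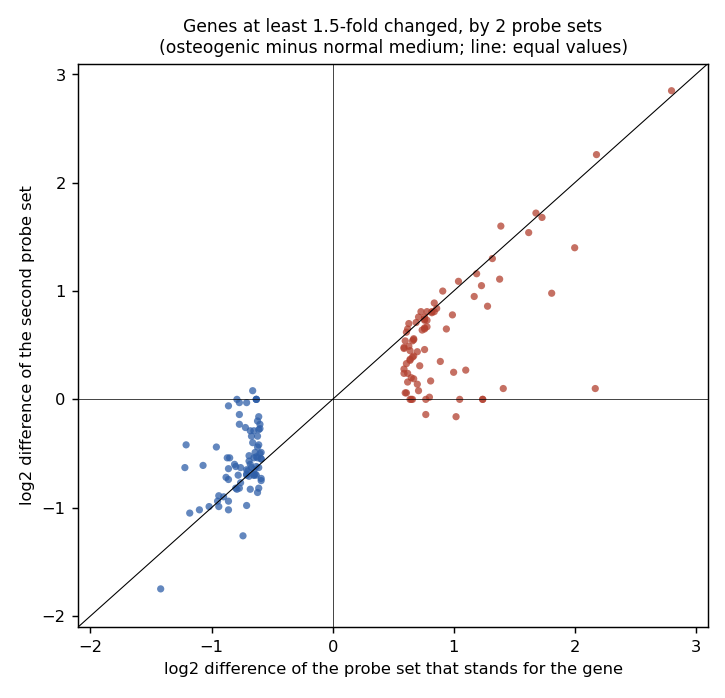
Difference between osteogenic and normal medium (log2) by the second probe set of a gene (y axis) against the probe set that stands for the gene (x axis), for genes at least 1.5-fold changed with a second probe set above the floor; the line marks equal values. Most points lie on the same side of 0 on both axes, with 52 of 57 genes of the same sign in the higher range below 2-fold and 69 of 74 in the lower one.

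Changes were somewhat more frequent among dim genes. With the 11417 genes split by mean level into 4 classes of near equal size, 3.64%, 3.96%, 2.91% and 2.94% were past 1.5-fold from the lowest to the highest class. The direction differed between the classes, with 69 higher and 35 lower in the lowest and 34 higher and 50 lower in the highest. Of the changed genes, 25 pairs were direct neighbours in the gene table, and 13 pairs had the same direction, including Hes1 and Lrrc15, P3h2 and Cldn1, Selenop and Ghr, and the bone matrix genes Dmp1 and Ibsp. Tnfrsf11b, which encodes the osteoclast inhibitor osteoprotegerin, and its neighbour Ccn3 had opposite ones, at 2.80 and -1.18.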

How the data were processed

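RNA levels were measured with Affymetrix mouse genome arrays after 3′ IVT labelling, which starts at the poly(A) tail, per the labels' protocols. The values deposited by the authors were taken as log2 from their range of 0.652 to 13.4; for the log base, summarisation and normalization, nothing is given in the sources used here. The array medians of 3.54, 3.57 and 3.54 were on one scale, so a change in the total RNA per cell would not be seen. Of 45037 probe sets that are not controls, 34945 had 1 symbol in the platform annotation, 932 had several and 9160 were not named here.

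For each gene the probe set of highest mean over the 3 arrays was used, and values under the 50th percentile of all probe sets (3.54) were raised to it. Osteogenic medium minus normal medium was computed per gene, called at 1.5-fold and 2-fold, with no test at 1 array per group. Promoters came from RefSeq (GRCm38.p6), with 7 motifs searched on both strands. Of 11417 measured genes, 9229 had an entry. Gene neighbours came from the order of genes in the same assembly's gene table.

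The members and gene lists were chosen with earlier results of these data known. The genes named were the 15 largest changes each way between 1.5-fold and 2-fold, up to 15 each way with at least 2 probe sets past 1.5-fold, the 20 largest past 2-fold, the 8 largest bounds, up to 6 per list and the 3 nearest either side of each limit. Clone names and known osteoblast genes were left out of these ranks, not every gene so ranked is described, and further genes were named after their values were seen. The alternatives were a floor at the 40th or 60th percentile or none, the mean over all probe sets, leaving out probe sets with the suffixes _s_at and _x_at, quantile normalization and cyclic loess. The tools were R 4.3.3 (limma 3.58.1) and Python 3.11.15 (matplotlib 3.10.9, pandas 2.3.3, numpy 2.4.6), and the procedure was tested on simulated data.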

Additional observations from a re-analysis of the deposited data

How the results depend on the processing

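None of the 384 genes changed direction under any of the 7 alternatives that gave it a value, and the median over all genes was 0.00 under each. Another floor, or none, cannot reverse a difference, and a gene that fell to 0.00 was not counted as reversed. All alternatives used the same arrays, so the absence of reversals says nothing about a repeat culture. The counts of higher and lower genes moved most with the mean over all probe sets of a gene, to 131 and 125, of which 126 and 117 were among the 200 and 184; in the range from 1.5-fold to 2-fold they were 94 and 109. That mean takes in probe sets under the floor at their own values, and the mean itself was raised to the floor where it lay under it. Under the other 6 alternatives the counts were 169 to 229 higher and 172 to 207 lower. Of the 200 higher genes, 105 stayed past 1.5-fold under every alternative with a value, as did 110 of the 184 lower ones; past 2-fold these were 39 of 54 and 20 of 21. Among the genes described, the floor at the 60th percentile took Bmper (0.51), Slc40a1 (0.16), Adgrd1 (0.16), Kcnk2 (0.04), Il33 (0.14), Il6ra (0.38), Gli1 (0.22), Cdh1 (0.39), Galnt3 (0.39) and Rnf43 (0.00) under 1.5-fold. The mean over all probe sets did so for 74 of the 200 higher and 67 of the 184 lower genes. Of those described, the higher genes were Ptch1 (0.41), Inhba (0.47), Lif (0.46), Aurka (0.32), Bub1 (0.42), Cenpa (0.29), Exo1 (0.23), Ccnd1 (0.55), Mdm2 (0.55), Axin2 (0.31), Ptger4 (0.49), Jmjd6 (0.35), Galnt3 (0.00) and Vcan (0.00). The lower genes were Socs2 (-0.47), Masp1 (-0.57), Ptgfr (-0.54), Slc26a7 (-0.49), Slc1a5 (-0.34), Gfra2 (-0.54), Il6st (-0.50), Fbln2 (-0.46), Aspn (-0.53), Efnb2 (-0.09), Abca9 (-0.19), Pknox2 (-0.37), Ntrk3 (0.00) and Cldn1 (0.00). Leaving out the suffixed probe sets took 8 higher and 12 lower genes under 1.5-fold, among them Tgfbi (0.54), Jmjd6 (0.39), Masp1 (0.00) and Gfra2 (-0.22). Il6st was also just under 1.5-fold with quantile normalization (-0.57) and cyclic loess (-0.58). The genes named only for lying next to a limit are not listed here. No paired analysis was possible because each medium had 1 array and the labels share no replicate numbers. The spread between cultures is unknown. A level near the floor carries the least signal over background, and changes there are bounds.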

Other observations

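Some genes were counted as unchanged by the probe set that stands for them while another probe set of the same gene differed at least 2-fold. Lifr, the receptor of leukemia inhibitory factor, read 8.48 and 8.54 in normal and osteogenic medium by its brightest probe set, but another read 5.57 and 6.76, a difference of 1.19, and 7.40 with DMSO. Ahnak, a large scaffold protein, differed by -0.13 and 1.17, and Dclk1, a microtubule-associated kinase, by 0.00 and 1.09. In the other direction were Cdkn1b, the cell cycle inhibitor p27 (-0.22 and -1.18), Eif4e3 (-0.52 and -1.17), Golm2 (-0.31 and -1.27) and Taf15 (-0.39 and -1.20). Whether these probe sets read different transcripts of the gene was not tested.

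Probe sets without a single gene name were left out of the comparison. Of 1886 unnamed probe sets above the floor, 37 were at least 1.5-fold higher and 22 lower, together 3.13%. Of 557 with several names, 6 were higher and 4 lower. A probe set shared by H19, an imprinted long noncoding RNA, and the microRNA gene inside it, Mir675, read 9.77 and 10.54. One shared by Phospho1, a phosphatase of matrix vesicles, and Zfp652 went from the floor to 4.70. A probe set shared by 13 genes of histone H4 read 5.00 and 5.87, and one shared by Lrrc8a and Phyhd1 read 5.87 and 4.27.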
